A study of Rattus norvegicus with 9 samples.

Results

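The genes described here are the protein kinase C (PKC) isoforms Prkca, Prkcb, Prkcd, Prkce, Prkch, Prkcq, Prkci and Prkcz, whose transcripts were compared between the hippocampus (HC), the prefrontal cortex (PFC) and the blood of the rat. They were picked by name from the annotation of the array, with earlier results of these data known although no measured value enters the rule, and make up 8 of the 14506 genes that the annotation names. Each was read from the probe set of its symbol with the highest mean over all arrays, and each had only 1 such probe set. The study measured baseline transcript levels in blood and brain of the same animals on whole-transcript arrays. The animals were male Wistar rats that received no treatment, arrived at an age of 6 weeks and were housed for 1 week. Blood was drawn into tubes that stabilise RNA, and both brain regions were punched from frozen sections, so that every sample is a mixture of cell types. RNA was isolated with the PAXgene kit from blood, and with TRIzol and an RNeasy kit from brain. In comparisons with blood, tissue and RNA method therefore cannot be told apart. The authors could not exclude some blood in the brain samples and took its level to be low. The 9 arrays come from rats 2, 5 and 7, with 1 array per tissue and rat and 3 arrays per tissue. The sample labels speak of 6 rats, the methods of the study of 4 and the series description of 3. The study left out 1 sample that failed its quality criteria.

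PKC isoforms are serine/threonine kinases at the end of a common pathway. Receptors coupled to Gq proteins, or tyrosine kinases, activate phospholipase C, which cleaves a membrane lipid into inositol trisphosphate (IP3), a releaser of stored calcium, and diacylglycerol. The conventional isoforms (alpha from Prkca, beta from Prkcb) need calcium and diacylglycerol, the calcium-independent isoforms (delta from Prkcd, epsilon from Prkce, eta from Prkch, theta from Prkcq) need diacylglycerol alone, and the atypical isoforms (iota from Prkci, zeta from Prkcz) need neither and act with polarity proteins. In neurons PKC adjusts transmitter release, receptor trafficking and synaptic strength. In blood, theta carries signals of the T cell receptor, beta those of the B cell receptor, and several isoforms act in platelets and phagocytes.

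All values are on the log2 scale of RMA, the robust multi-array average, so that a difference of 1 is a doubling of the measured signal. A level can be compared between tissues for the same probe set, but not between probe sets. A gene was called present in a tissue when its mean over 3 arrays was above 6.2. A background limit was set for each tissue at the 95th percentile of 1437 probe sets for olfactory and other chemosensory receptors, and came to 5.52 for blood, 4.88 for HC and 4.87 for PFC. Their median was also higher in blood (3.92) than in HC (3.40) and PFC (3.38). Low values, and presence at 6.2, are therefore less comparable between blood and brain than high values. The arrays of a brain region were alike, with Spearman correlations across probe sets of 0.995 to 0.996 in HC, whereas those of blood ranged from 0.957 to 0.968. The blood array of rat 5 held the lowest of the 3 blood values for 44.6% of the 16884 probe sets tested, and for 7 of the 8 PKC genes. Markers of T cells averaged 9.16, 8.50 and 9.30 in the blood of rats 2, 5 and 7, and those of NK cells 7.98, 7.10 and 8.11, so that rat 5 was lowest in both. In markers of B cells, of monocytes and neutrophils and of erythroid cells, rat 7 was lowest instead. Since rat 5 was lowest so often over all probe sets, results are also given without its blood array. Neuron and erythroid markers fitted the labels. The 10 neuron markers averaged 10.85 to 10.96 per array in the brain regions and 5.21 to 5.33 in blood. The 6 erythroid markers averaged 12.63 to 12.81 in blood, 5.70 to 6.05 in HC and 6.32 to 6.72 in PFC. Of these 6, 2 were present in each brain region, and Hbb averaged 8.69 in HC and 9.66 in PFC. Microglia markers did not separate HC from blood. Of 6 tested, 2 were higher and 3 lower in HC than in blood, with a median difference of -0.09.

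The promoters of a pair of genes higher in brain (Prkce, Prkcz) and a pair higher in blood (Prkcd, Prkcq) are shown because genes of opposite direction shared the same kind of start region. Each is a window of 300 bases around the annotated start, mostly before it, printed 5′ to 3′ on the strand of the gene, as given by RefSeq for the rat assembly GRCr8. Capitals mark GC boxes, the letters GGGCGG or, on the other strand, CCGCCC. Prkce lies at chr6:14204239-14204538, Prkcz at chr5:171212625-171212924, Prkcd at chr16:5805790-5806089 and Prkcq at chr17:72288459-72288758, each on the minus strand.
Prkce: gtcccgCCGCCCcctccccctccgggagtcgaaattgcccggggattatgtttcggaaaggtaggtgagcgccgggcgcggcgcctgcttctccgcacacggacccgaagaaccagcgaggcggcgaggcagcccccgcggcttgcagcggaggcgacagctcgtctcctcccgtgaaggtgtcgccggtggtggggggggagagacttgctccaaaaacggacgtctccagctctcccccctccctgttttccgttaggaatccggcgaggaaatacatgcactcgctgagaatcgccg
Prkcz: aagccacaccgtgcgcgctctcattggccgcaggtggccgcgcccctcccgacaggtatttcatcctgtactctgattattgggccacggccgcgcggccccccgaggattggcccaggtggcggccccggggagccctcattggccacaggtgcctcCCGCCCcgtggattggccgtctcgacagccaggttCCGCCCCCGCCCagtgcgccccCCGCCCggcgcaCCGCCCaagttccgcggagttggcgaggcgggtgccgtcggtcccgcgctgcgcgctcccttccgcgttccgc
Prkcd: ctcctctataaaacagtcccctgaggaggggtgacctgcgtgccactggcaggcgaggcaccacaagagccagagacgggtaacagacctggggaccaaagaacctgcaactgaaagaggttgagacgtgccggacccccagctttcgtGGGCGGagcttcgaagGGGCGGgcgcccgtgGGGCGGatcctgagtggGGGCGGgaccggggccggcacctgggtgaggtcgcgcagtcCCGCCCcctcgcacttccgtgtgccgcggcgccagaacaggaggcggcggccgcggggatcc
Prkcq: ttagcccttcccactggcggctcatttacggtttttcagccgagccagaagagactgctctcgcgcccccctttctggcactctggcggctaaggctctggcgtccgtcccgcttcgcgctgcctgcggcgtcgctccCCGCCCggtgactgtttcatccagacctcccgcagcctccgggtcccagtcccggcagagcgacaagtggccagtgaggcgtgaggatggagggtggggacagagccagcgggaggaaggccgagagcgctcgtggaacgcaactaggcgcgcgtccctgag

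Promoters of 6 of the 8 genes were matched, those of Prkca, Prkcd, Prkce, Prkci, Prkcq and Prkcz. A GC box was found in 6 of these 6, against 33.1% of all 33469 promoters of the same length, and the 6 held between 1 and 5 of them. They were also rich in G and C (66.3% to 73.3%, against a median of 51.67% over all promoters) and in CpG, whose observed count over that calculated from base composition was 0.766 to 1.0, against a median of 0.392. A TATA box (TATAAA, both strands) was found in Prkcd alone and in 14.2% of all promoters. The CCAAT box (CCAAT, both strands) was found in Prkcz alone and in 37.5% of all promoters. None of the 6 windows held the E-box CACGTG, the cyclic AMP response element TGACGTCA or the ETS letters CCGGAAG, which 6.42%, 1.83% and 8.75% of all promoters held. GC boxes were thus found in promoters of genes of either direction, and the matches are a description of the windows only. They were set beside all promoters, and no set matched for base composition or for expression was compared.

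Comparing brain with blood, 5 genes (Prkca, Prkcb, Prkce, Prkci, Prkcz) were higher in both HC and PFC, and 3 (Prkcd, Prkch, Prkcq) were lower in both. All 8 passed the test in HC minus blood, at an adjusted p under 0.05, beside 83.9% of all 16884 probe sets tested (47.6% higher, 36.3% lower). All 8 also passed in PFC minus blood, beside 84.0% (47.3% higher, 36.7% lower). A call was therefore common. Regardless of sign, the HC minus blood differences of the 8 genes were 1.83 to 4.45 with a median of 2.71, against a median of 0.98 over all probe sets tested, and the PFC minus blood differences had a median of 2.57, against 0.97. The signed medians, which mix 5 genes higher with 3 lower, were 2.27 and 2.18, against 0.22 and 0.20 over all probe sets tested. Relative to that median of all, the HC minus blood differences ran from -2.92 (Prkch) to 4.23 (Prkcz). The arrays of brain and blood did not overlap for any of the 8 genes, which was also true of 84.4% (HC) and 83.8% (PFC) of the probe sets tested. Both comparisons use the same 3 blood arrays, so they are not independent of each other. In samples of mixed cell types, fewer cells of a type and less RNA per cell cannot be told apart.

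By the cut-off for presence, 5 genes (Prkca, Prkcb, Prkcd, Prkce, Prkcq) were co-expressed in blood and both brain regions. Prkci and Prkcz were present only in the brain regions, and Prkch only in blood. At the background limit of each tissue instead of 6.2, all 8 counted as present in all 3 tissues. These counts describe the 8 genes only, since the shares over all genes were not counted here. In the study, which also asked for a detection p-value, genes found in all 3 tissues were likewise the largest group. Genes of both brain regions only came next, before those of blood only. The plot of the RMA values by tissue and rat shows the levels of the 8 genes.

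**Figure D1:**
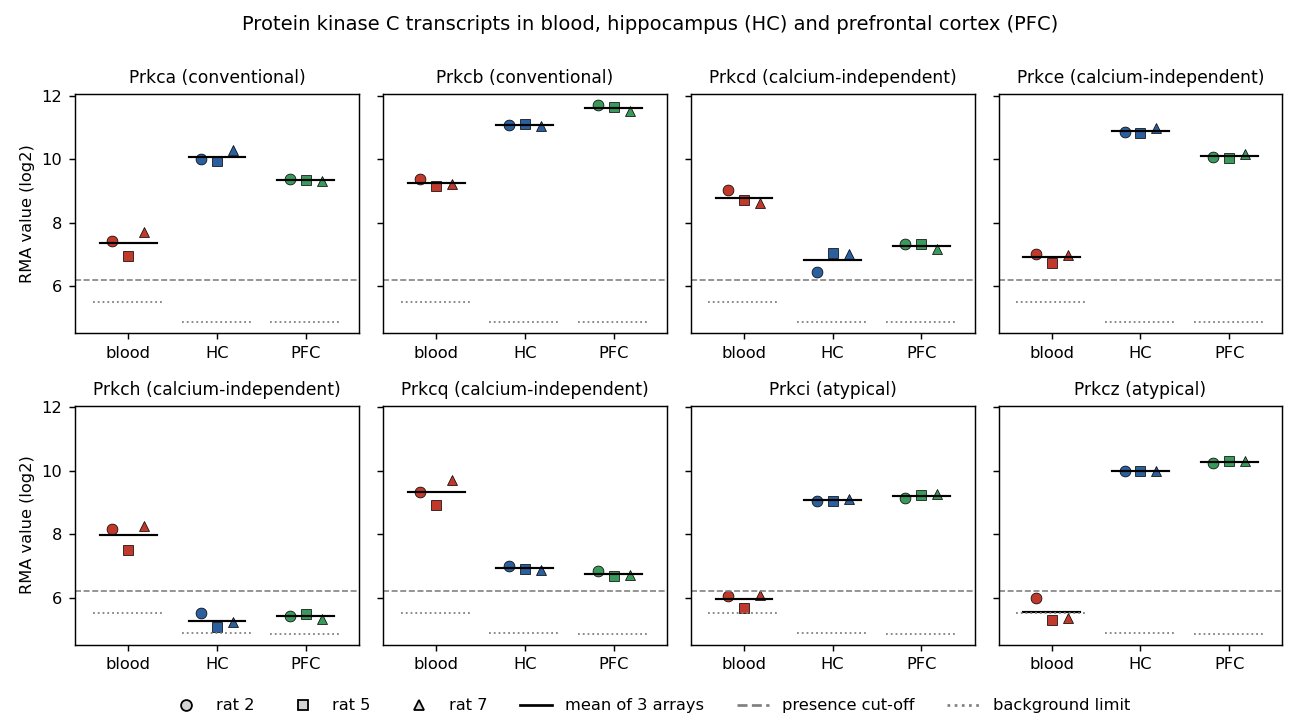
RMA values (log2, vertical axis) of the 8 PKC genes in blood, HC and PFC, with 1 symbol per array (rats 2, 5 and 7), a bar at the mean of 3 arrays, a dashed line at the presence cut-off of 6.2 and dotted lines at the background limit of each tissue. Prkcd, Prkch and Prkcq sit higher in blood than in brain, the other genes sit lower, and Prkcz in blood lies at the background limit.

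Of the conventional isoforms, Prkca, the widely expressed alpha isoform, was higher in brain and higher in HC than in PFC. Its values in blood were 7.42, 6.97 and 7.71 in rats 2, 5 and 7, in HC 9.997, 9.963 and 10.29, and in PFC 9.37, 9.34 and 9.31. No arrays of the 3 tissues overlapped, and the blood values spread most (SD 0.38, against 0.18 in HC and 0.030 in PFC, n = 3 each). HC exceeded blood by 2.72 ± 0.17 (SE), or 6.58-fold (adjusted p = 2.03e-07). PFC exceeded blood by 1.97 ± 0.17, or 3.92-fold (adjusted p = 2.24e-06).

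Prkcb, which gives the beta isoforms of B cells and of many neurons, was also higher in brain, with PFC above HC. Blood gave 9.37, 9.15 and 9.21, HC 11.07, 11.11 and 11.04, and PFC 11.71, 11.64 and 11.53. The 3 groups were separate from each other, and its blood arrays were the tightest of any PKC gene (SD 0.11, n = 3). The difference was 1.83 ± 0.090 (SE) for HC minus blood (3.55-fold, adjusted p = 3.17e-08) and 2.38 ± 0.090 for PFC minus blood (5.21-fold, adjusted p = 4.93e-09). Prkcb was present in blood although lower there, and 4 B cell markers averaged 8.20 to 8.55 in blood and 4.66 to 4.84 in the brain regions.

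Among the calcium-independent isoforms the family divided. Prkce, the epsilon isoform of nerve terminals, was measured in blood at 7.02, 6.75 and 7.00, in HC at 10.86, 10.82 and 10.99, and in PFC at 10.08, 10.05 and 10.17. The groups did not overlap, HC was highest and blood lowest in every rat, and the SD was at most 0.15 in any tissue (n = 3). Prkce was higher by 3.97 ± 0.10 (SE) in HC (15.7-fold, adjusted p = 3.83e-10) and by 3.18 ± 0.10 in PFC (9.03-fold, adjusted p = 1.48e-09) than in blood.

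Prkcd, the delta isoform of myeloid and lymphoid cells, went the other way. Its values were 9.04, 8.71 and 8.64 in blood, 6.45, 7.05 and 7.02 in HC, and 7.34, 7.35 and 7.17 in PFC. Blood was above both brain regions in every rat, and the HC array of rat 2 lay apart from the other two at the low end (SD of HC 0.34, n = 3). HC minus blood was -1.95 ± 0.17 (SE), so that blood was 3.88-fold higher (adjusted p = 2.27e-06). PFC minus blood was -1.512 ± 0.17, or 2.85-fold higher in blood (adjusted p = 1.6e-05). Prkcd was present in all 3 tissues, and it was the only PKC gene for which rat 5 did not have the lowest blood value.

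Prkch, the eta isoform of epithelia and lymphocytes, was the only member present in blood and absent by the cut-off from both brain regions. It gave 8.17, 7.50 and 8.26 in blood, 5.52, 5.08 and 5.22 in HC, and 5.43, 5.48 and 5.32 in PFC. Blood was separate from brain, the HC and PFC arrays overlapped, and both brain means (5.27 and 5.41) lay above the background limits of their tissue. HC minus blood was -2.70 ± 0.19 (SE; 6.50-fold higher in blood, adjusted p = 4.95e-07) and PFC minus blood -2.56 ± 0.19 (5.91-fold, adjusted p = 7.28e-07).

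Prkcq, the theta isoform that signals below the T cell receptor, had blood values of 9.34, 8.92 and 9.70. In HC it gave 6.99, 6.90 and 6.88 and in PFC 6.83, 6.70 and 6.70. Blood lay above brain in every rat with a wider spread (SD 0.39, against 0.057 in HC and 0.074 in PFC, n = 3 each), and the gene stayed above the presence cut-off in every brain array. HC minus blood was -2.39 ± 0.17 (SE; 5.25-fold higher in blood, adjusted p = 3.9e-07) and PFC minus blood -2.58 ± 0.17 (5.96-fold, adjusted p = 2.23e-07).

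Markers of T cells moved with Prkch and Prkcq. The 8 T cell markers averaged 8.50 to 9.30 per array in blood, 4.45 to 4.50 in HC and 4.30 to 4.46 in PFC, and 3 of the 8 were above the background limit in each brain region. Among the 3 blood arrays, Prkch (8.17, 7.50, 8.26), Prkcq (9.34, 8.92, 9.70), T cell markers (9.16, 8.50, 9.30) and NK cell markers (7.98, 7.10, 8.11) all had rat 5 at the bottom and rat 7 at the top. The same order was found for platelet markers (9.92, 9.74, 10.09) and for Prkca and Prkci, which are higher in brain. It was thus not limited to these genes or to lymphocytes, nor was it shared by all markers of blood cells. Markers of B cells (8.55, 8.32, 8.20), of monocytes and neutrophils (9.88, 9.91, 9.77) and erythroid markers (12.72, 12.81, 12.63) had rat 7 lowest. Prkcd (9.04, 8.71, 8.64) had rat 7 lowest too. The part of these markers in the results was not tested. Without the blood array of rat 5, HC minus blood was -2.94 for Prkch and -2.59 for Prkcq, and both passed the test.

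The atypical isoforms were the ones not present in blood. Prkci, the iota isoform of cell polarity complexes, gave 6.05, 5.69 and 6.09 in blood, 9.05, 9.05 and 9.11 in HC, and 9.13, 9.23 and 9.26 in PFC. Blood was far below brain in every rat, just under the cut-off of 6.2 and above the background limit of 5.52. The difference was 3.13 ± 0.11 (SE) in HC (8.73-fold, adjusted p = 3.95e-09) and 3.26 ± 0.11 in PFC (9.58-fold, adjusted p = 2.91e-09).

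Prkcz also encodes PKM zeta, a brain form without the regulatory part of the kinase that has been studied for its part in maintaining memory, and the single probe set does not tell the forms apart. It gave 5.97, 5.29 and 5.36 in blood, 9.982, 9.973 and 10.001 in HC, and 10.24, 10.31 and 10.29 in PFC. The blood values of rats 5 and 7 were below the background limit of 5.52 and only that of rat 2 was above it, whereas the HC arrays had an SD of 0.014 (n = 3). Prkcz had the widest differences of the family, 4.45 ± 0.16 (SE) in HC (21.8-fold, adjusted p = 3.56e-09) and 4.74 ± 0.16 in PFC (26.7-fold, adjusted p = 2.26e-09). With values below the background limit raised to it, these differences were 4.31 and 4.60.

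**Figure D2:**
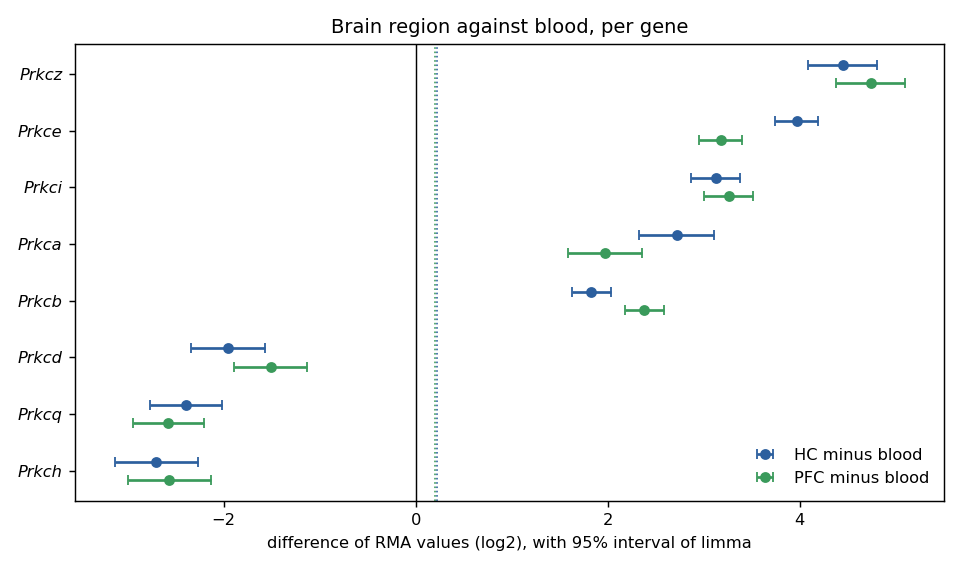
Difference of RMA values (log2, horizontal axis) between each brain region and blood for the 8 PKC genes, as estimates of limma over 9 arrays with 95% intervals; dotted lines mark the median of all probe sets tested in each comparison. Of the 8 genes, 5 lie to the right of zero and 3 to the left in both regions, from -2.70 (Prkch) to 4.45 (Prkcz) in HC minus blood.

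Scaling bears on these values, since blood and brain differ in most transcripts. When each array was centred on a panel of 13 housekeeping genes instead, every HC minus blood difference was lower by 0.72 and every PFC minus blood difference by 0.75. In the main analysis 11 of the 13 panel genes were called higher in HC than in blood and 2 lower, with a median of 1.11. The panel is therefore not a neutral reference between these tissues. All 8 PKC genes kept their direction and passed the test under housekeeping scaling, from 1.11 (Prkcb) to 3.73 (Prkcz) for the genes higher in HC and from -2.67 (Prkcd) to -3.42 (Prkch) for those lower. The scaling also changed which probe sets passed the filter on low values, from 16884 to 18662 tested. The split of the calls changed from 8030 higher and 6133 lower to 4741 higher and 11328 lower in HC minus blood, and from 7979 and 6197 to 4581 and 11553 in PFC minus blood. Without the blood array of rat 5, the HC minus blood differences of the genes higher in brain were 1.78 (Prkcb) to 4.32 (Prkcz), and all 8 genes passed the test in both comparisons.

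Between the brain regions the differences were smaller. Prkca and Prkce were higher in HC, and Prkcb was higher in PFC. These 3 of 8 genes passed the test, beside 9.16% of the probe sets tested (4.51% higher, 4.66% lower in HC). The HC and PFC arrays did not overlap for 7 of 8 genes, all but Prkch, beside 42.0% of the probe sets tested. Regardless of sign, the differences of the 8 genes had a median of 0.37, against 0.12 over all probe sets tested. The signed median, which mixes genes of either direction, was -0.14, against -0.003. The estimate of error in this fit includes the wider spread of the blood arrays, whose SD for PKC genes was 0.11 to 0.42, against 0.014 to 0.34 in HC and 0.030 to 0.099 in PFC. A fit to the 6 brain arrays alone is therefore given beside it, in which 25.7% of the probe sets passed the test and 4 of the 8 PKC genes did.

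Prkce showed the widest difference, with HC above PFC by 0.79 ± 0.10 (SE), or 1.73-fold (adjusted p = 0.000746, and 0.0002 with the 6 brain arrays). The excess was 0.79, 0.77 and 0.83 in rats 2, 5 and 7. Prkca was higher in HC by 0.74 ± 0.17, or 1.68-fold (adjusted p = 0.0241, and 0.00146 with the 6 brain arrays), and by 0.63, 0.62 and 0.99 in the 3 rats. This call was lost without any 1 of the 6 brain arrays (adjusted p = 0.0557 to 0.106), without rat 2 (0.215) and without rat 7 (0.131).

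Prkcb was lower in HC, with a difference of -0.55 ± 0.090 (SE), or 1.47-fold higher in PFC (adjusted p = 0.00374, and 0.000714 with the 6 brain arrays). It was lower in each rat, by -0.63, -0.53 and -0.49. The call was lost without rat 2 (adjusted p = 0.062) or rat 7 (0.0612). The conventional isoforms thus lay on opposite sides between the regions, Prkca toward HC and Prkcb toward PFC.

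The call of Prkcz depended on the arrays in the fit. HC minus PFC was -0.29 (95% interval -0.65 to 0.06, adjusted p = 0.397) with 9 arrays, and the same difference had an interval of -0.39 to -0.19 and an adjusted p of 0.00281 with the 6 brain arrays. The difference was -0.26, -0.33 and -0.29 in the 3 rats. Prkcd gave -0.44 (95% interval -0.83 to -0.06, adjusted p = 0.179, and 0.0949 with the 6 brain arrays), with -0.88, -0.30 and -0.15 in the 3 rats, so that rat 2 lay apart.

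The other differences between HC and PFC did not pass in either fit. Prkcq gave 0.18 (95% interval -0.19 to 0.55, adjusted p = 0.693, and 0.0562 with the 6 brain arrays). With the rat as a block among those 6 arrays, a fit added after the data had been seen, Prkcq passed (adjusted p = 0.0424). Prkci gave -0.13 (interval -0.39 to 0.12, adjusted p = 0.662), and with the 6 brain arrays its interval was -0.26 to -0.012 before adjustment (adjusted p = 0.106). Prkch gave -0.14 (interval -0.57 to 0.30, adjusted p = 0.835), and -0.41 to 0.13 with the 6 brain arrays (adjusted p = 0.424). Its rats differed in sign (0.087, -0.40 and -0.10), and its difference was -0.26 without the HC array of rat 2, -0.042 without that of rat 5 and -0.0067 without rat 5 altogether. The intervals bound these differences and do not show that the regions were alike. Markers of oligodendrocytes moved between the regions too: 6 of 7 were higher in HC, with a median difference of 0.89 and array means of 9.97 to 10.30 in HC against 9.06 to 9.61 in PFC. Erythroid markers moved the other way, with 3 of 6 lower in HC, a median difference of -0.58 and array means of 5.70 to 6.05 in HC against 6.32 to 6.72 in PFC; Hbb, a globin chain, differed by -0.97. Of the other marker lists, 1 of 8 astrocyte markers was higher in HC (Gfap, 1.55), 1 of 8 T cell markers was higher, 1 of 10 neuron markers was lower, and 1 of 9 monocyte and neutrophil markers was lower (Lyz2, -1.01). Of the PKC genes higher in blood, Prkcd (-0.44) and Prkch (-0.14) had the lower mean in HC and Prkcq (0.18) the higher. None of these differences passed the test over 9 arrays. The part of the markers in the differences of the PKC genes was not tested.

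**Figure D3:**
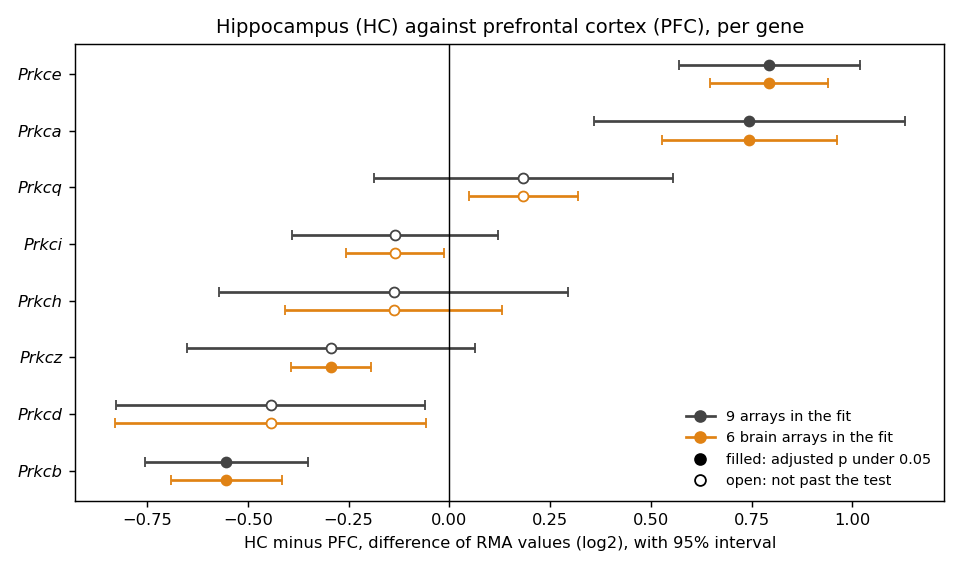
HC minus PFC difference of RMA values (log2, horizontal axis) for each PKC gene with 95% intervals, from the fit to 9 arrays and from the fit to the 6 brain arrays; filled symbols passed the test at an adjusted p under 0.05. Prkce and Prkca lie to the right, Prkcb to the left, and Prkcz is filled only in the fit to 6 arrays.

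To describe how the isoforms varied together, each gene was centred on its mean over the 9 arrays and the root mean square distance was taken for all 28 pairs. The 3 pairs of genes higher in blood lay 0.19 to 0.55 apart, the 10 pairs of genes higher in brain 0.42 to 1.19, and the 15 pairs of opposite direction 1.82 to 3.41. The distances include the differences between brain and blood by which the pairs were sorted. This separation therefore restates those differences and adds no result to them. The closest pair was Prkch and Prkcq at 0.19, and the farthest Prkch and Prkcz at 3.41. The biochemical classes did not line up with these distances in the calcium-independent isoforms. Delta and theta, which are close relatives in sequence, were 0.53 apart, whereas epsilon and eta, the other pair of close relatives, were 2.96 apart because they went in opposite directions. The conventional pair was 0.58 apart and the atypical pair 0.68.

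**Figure D4:**
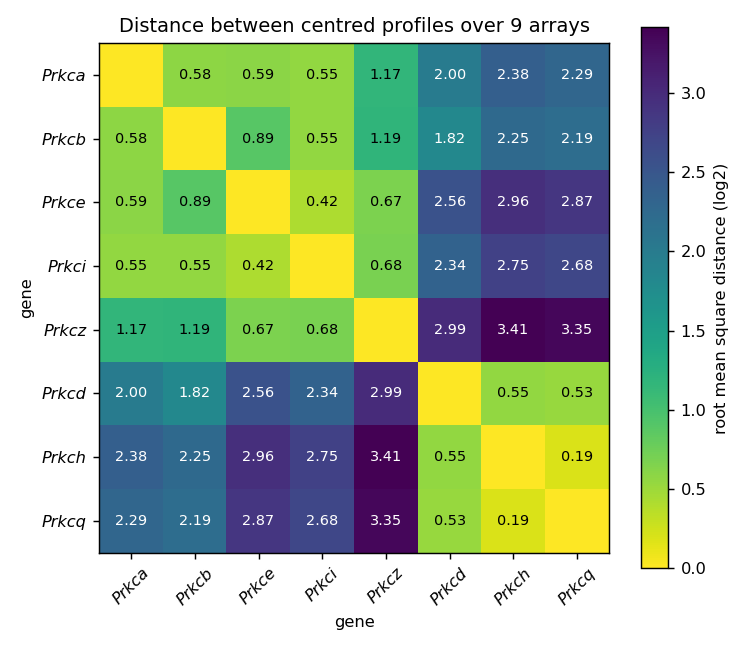
Root mean square distance (log2) between the centred profiles of each pair of PKC genes over 9 arrays, with genes higher in brain listed first and genes higher in blood last. The block of Prkcd, Prkch and Prkcq holds distances of 0.19 to 0.55, and pairs of opposite direction hold 1.82 to 3.41.

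By the same distance, the 3 nearest of 9926 genes were found for each isoform. Nearest to Prkca were Camk1d (0.13), a calcium/calmodulin-dependent kinase, Kcnab2 (0.15) and Ahcyl2 (0.15). Those of Prkcb were Lpgat1 (0.085), Cyfip2 (0.092) and Lpgat1l1 (0.096), and those of Prkce were LRRTM1 (0.12), Bhlhe41 (0.15) and Dock9 (0.15). Of the atypical isoforms, Prkci lay nearest to Sptan1 (0.0515), Vps41 (0.069) and Lrrtm2 (0.077), and Prkcz to Rab15 (0.066), Omg (0.10) and Elavl2 (0.13). Prkcd lay nearest to Pced1b (0.14), Relt (0.19) and Ifitm2 (0.19). Prkch lay nearest to Rasgrp2 (0.13), Rnf125 (0.15) and Hcar2 (0.15), and Prkcq to Ptgs1 (0.11), Mfng (0.11) and Pira2 (0.12).

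The wider pathway was followed in 9 gene lists, from the G proteins that start it to the substrates of PKC. Of 97 listed genes 81 had a named probe set and 78 were tested. In HC minus blood 39 were higher, 32 were lower and 7 did not pass, which is to be read beside the 83.9% of all probe sets called (47.6% higher, 36.3% lower). In PFC minus blood 38 were higher, 31 were lower and 9 did not pass, and of the 66 genes called in both comparisons 0 had opposite signs. With housekeeping scaling 79 genes were tested and the counts became 33 higher and 41 lower in HC minus blood, with 4 called genes changing sign (Plcd1, Ppp1r14a, Add1 and Chuk), and 32 and 42 in PFC minus blood, with 5 changing sign (Plcd1, Dgkg, Itpkc, Add1 and Marcksl1). Between HC and PFC 6 genes were higher, 5 were lower and 67 did not pass (7 higher and 2 lower with housekeeping scaling), beside 9.16% of all probe sets called. The counts per list that follow describe the lists and set none of them apart from other genes. All differences named next are HC minus blood unless stated otherwise.

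At the start of the pathway, 3 of 4 Gq class alpha subunits were higher in HC, with a median of 2.39. Gnaq (2.77) and Gna11 (2.47), the subunits that couple many receptors to phospholipase C, were higher, and Gna15 (-1.57), the subunit of blood cells, was lower. Gna14 was below the background limit in blood and was higher in HC than in PFC by 0.98. Of 11 phospholipase C genes 5 were higher, 4 were lower and 2 did not pass (4 higher and 6 lower with housekeeping scaling). Plcb1, the beta isoform driven by Gq, was higher by at least 3.97, since blood was below its limit. Plcl1 (2.61) and Plcl2 (-2.52), relatives without catalytic activity, went in opposite directions, and Plcg2, which acts in B cells and myeloid cells, was lower by a difference of at least -2.41 in HC, where it was below the limit. Plcb4 was lower in HC than in PFC, with a difference of -1.74.

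Diacylglycerol kinases, which remove diacylglycerol by phosphorylation, were higher in HC in 4 of 5 cases, with a median of 2.504. Dgkb was higher by at least 4.77 against the limit of blood, Dgki by 2.72, and Dgka, known from T cells, was lower (-1.55). Dgkg differed between the regions, with 1.77 more in HC than in PFC. On the IP3 branch 2 of 6 genes were higher and 3 were lower. The receptor channel Itpr1 (3.18) and the IP3 kinase Itpka (3.48) were higher, and their relatives Itpr3 (-1.08) and Itpkb (-1.36) were lower.

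Of 9 other proteins that bind diacylglycerol through a C1 domain, 6 were higher and 3 were lower, with a median of 1.52. Chn1 (3.40), a regulator of the small G protein Rac, and Unc13a (3.01), which primes synaptic vesicles, were higher. Rasgrp2 (-2.80) was lower, as was Rasgrp4, by a difference of at least -2.79 since it was below the limit in HC. Rasgrp4 was also lower in HC than in PFC, by a difference of at least -0.49 against the limit of HC. Of the other kinases related to PKC, Prkd1, a protein kinase D that PKC activates, was higher by at least 0.93, its relatives Prkd2 (-1.69) and Prkd3 (-1.28) were lower, and Pkn2 (0.15, adjusted p = 0.1) did not pass.

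Anchors and regulators of PKC were higher in 9 of 16 cases and lower in 6 (7 higher and 8 lower of 17 with housekeeping scaling). Akap5, the scaffold that holds PKC at synapses, was higher by at least 2.74 against the limit of blood, and Fez1, a neuronal partner of PKC zeta, by 3.55. Rack1 (-1.60), the receptor for activated PKC that is also a ribosomal protein, and Akap13 (-1.43) were lower, and Akap13 was higher in HC than in PFC by 0.82.

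PKC substrates were higher in 8 of 13 cases and lower in 3 (6 and 5 with housekeeping scaling). The synaptic proteins Snap25 and Gria2 were higher by at least 7.04 and 6.62 against the limit of blood, and Snap25 is also one of the neuron markers. Plek (-4.39), the substrate of PKC in platelets, and Ncf1 (-2.95), a subunit of the NADPH oxidase of phagocytes, were lower. Add3, an adducin of the membrane skeleton, was higher in HC than in PFC by 0.46.

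The module that leads from antigen receptors through PKC theta and beta to NF-kB was lower in HC in 9 of 10 genes, with a median of -1.45, and in PFC in 9 of 10. Btk, the tyrosine kinase of B cells, was lower by a difference of at least -2.57 against the limit of HC, and Vav1 (-3.45) was lower as well. Chuk, a kinase that all cells use for NF-kB, was higher by 0.35 and lower with housekeeping scaling. Between HC and PFC, 0 of the 10 genes passed the test of limma over 9 arrays (1 had an unadjusted p under 0.05), and 1 passed with the 6 brain arrays.

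**Figure D5:**
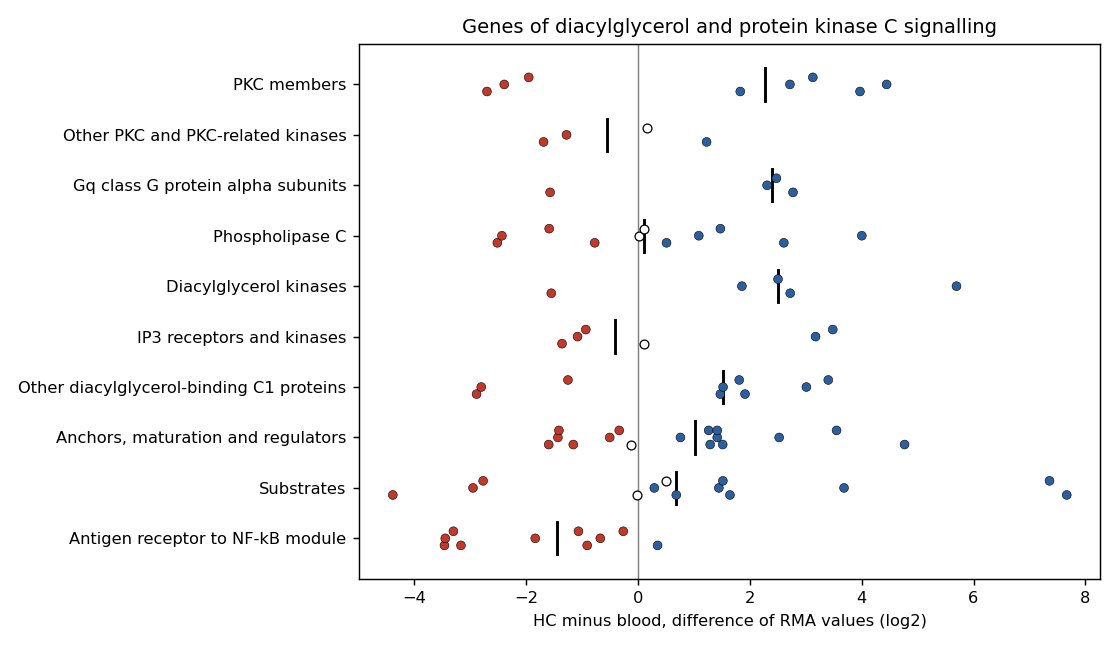
HC minus blood difference of RMA values (log2, horizontal axis) for each tested gene of the PKC family and of 9 pathway lists; blue genes were higher in HC, red genes were lower, open genes did not pass the test, and bars mark list medians. Each list holds called genes on both sides of zero, as the PKC family does, and 9 of 10 genes of the antigen receptor module lie to the left.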

How the data were processed

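Blood, HC and PFC of rats 2, 5 and 7 were profiled on Rat Gene 1.0 ST arrays. The authors quantile normalized the intensities, summarized them per probe set by RMA and deposited the values, which are read as log2 from their range (1.53 to 14.01). Their detection p-values were not used here. Tissue and rat came from the sample labels. The 16884 probe sets with a mean above 6.2 in at least 1 tissue were tested with limma 3.58.1 in R 4.3.3 (statmod 1.5.0), with tissue as factor, no block, and Benjamini-Hochberg adjustment at 0.05. An exact permutation test of 3 arrays against 3 cannot go below p = 0.1 and was not used. Same-numbered arrays come from 1 rat, and deviations of HC and PFC correlated in each rat (0.137 to 0.287).

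The PKC genes and all lists were chosen with earlier results of these data known, so no list was tested. From each list were named up to 2 genes with the widest difference per direction in HC minus blood and the widest in HC minus PFC, among those called, beside all 8 isoforms and their 3 nearest genes; Pkn2, and genes that changed sign with scaling, were named after their values were seen. "At least" replaces a mean below the background limit by that limit. Symbols and promoters came from RefSeq (GRCr8, 15279 of 15310 symbols matched); protein sequences were not used here. Alternatives covered filters, scalings, blocks, arrays in the fit and left-out arrays. The procedure was tested on simulated data. Plots used matplotlib 3.10.9 (Python 3.11.15).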

Additional observations from a re-analysis of the deposited data

How the results depend on the processing

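Under 22 alternatives for each gene, all 8 PKC genes kept direction and call against blood (176 of 176 values each for HC and PFC). Other filters, blocks or error estimates leave the difference itself unchanged, so only the call was tested there. The same holds when the array left out belongs to neither tissue compared. Direction was tested only where scaling, the background limit or the arrays of the compared tissues changed. For Prkcb in HC minus PFC, those values ran from -0.60 to -0.51. How many of all probe sets kept direction and call was not counted. In HC minus PFC no direction changed, 162 of 176 values kept their side of the threshold, 10 lost the call and 4 gained it. The number of PKC genes called there, 3 in the main analysis, was 0 when a log2 difference of at least 1 was also asked for (427 of all 16884 probe sets), and 5 with the rat as a block among the 6 brain arrays (replicate block, added after seeing the data; 4339 of 16884). It ranged from 1 to 4 when single arrays or rats were left out, being 1 (Prkce) without rat 2 (716 of 16971 probe sets) or rat 7 (656 of 16966) and 4 without the blood array of rat 2 (1943 of 16938), where Prkcz passed (adjusted p = 0.0234). The rat as a fixed block over all 9 arrays changed no call of a PKC gene (8, 8 and 3 called). Prkce passed in every alternative that set no minimum difference (adjusted p up to 0.0358). Over all probe sets, 1547 were called in HC minus PFC with 9 arrays and 4346 with the 6 brain arrays. The number of arrays, 3 per tissue, limits the precision of all values. The mean over probe sets per gene gave nothing further, since each isoform had 1 probe set.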
